A study of Corbicula fluminea with 24 samples.

Results

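Among 58291 assembled contigs of the Asian clam Corbicula fluminea, 39 carried the name of a ribosomal protein or of a translation factor. They were picked by name alone. Names that start with RPL, RPS, RL, RS or RLA and a digit, with IF and a digit, with eIF, or with EF1 or EF2 were taken, in any letter case and after a leading Reg_ was removed. The set held 11 contigs of the large ribosomal subunit, 19 of the small subunit, 7 counted as initiation factors and 2 elongation factors. Of the 7, EIF2AK4 was counted by its name, though it codes for a kinase and not for an initiation factor. No name began with RLA. All 39 had counts in every clam, the lowest being 13 reads, and all 39 passed the filter that left 57593 contigs for testing. The table gives names without sequence, length, species of origin or description, so each contig is described by what the gene of its name is known to do in other organisms.

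RNA was taken from the digestive gland of 24 clams, 1 library per animal. At the site receiving wastewater treatment plant (WWTP) effluent 8 clams were caged, at the site receiving urban runoff 8, and at the reference site 8. All 24 were kept in cages over the same winter months, so the reference clams were caged too. Each site had 1 caging, so p-values reflect variation among clams, and an effect of the cage cannot be told apart from one of the site. Nothing in the sources used here states the sex, age or origin of the animals.

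Ribosomes join a small subunit, which reads the messenger RNA, to a large subunit, which forms the peptide bond. Initiation factors unwind the messenger RNA and bring the subunits together, and elongation factors then deliver the loaded tRNAs and move the ribosome along. In animals the messenger RNAs of ribosomal proteins and elongation factors are among the most abundant of a cell, and the digestive gland of bivalves is a tissue that secretes enzymes and turns over its cells. In tissue RNA, fewer cells of a type and less RNA per cell cannot be told apart.

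Libraries held 40.4 to 97.7 M counts, and levels are given in CPM, the counts per 1e+06 counts of the library size after TMM scaling. Counts were not corrected for contig length, so levels are compared between clams and not between genes. The 13 digestive hydrolase contigs used to check the tissue were all present, with summed levels of 756 to 4794 CPM in WWTP clams, 395 to 3259 CPM in runoff clams and 400 to 3308 CPM in reference clams. Contractile genes (14 contigs) summed to 296 to 13536 CPM in WWTP clams, 622 to 4863 CPM in runoff clams and 548 to 3683 CPM in reference clams, and cilia and tubulin genes (30 contigs) to 4899 to 12542 CPM, 4494 to 9679 CPM and 5655 to 12494 CPM at the same sites. In neither list was a marker at 0 in all clams. Sequencing lanes 3 and 4 each held 4 libraries of each site.

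In edgeR with TMM factors, the only call on a member between 2 sites was the initiation factor IF4B in WWTP against runoff. Its levels in WWTP and runoff clams overlapped, and the call was lost with library totals in place of TMM factors. IF4B, which in animals stimulates the helicase that unwinds messenger RNA, was 1.58-fold higher in WWTP clams than in runoff clams. It was the 1 call among 39 in that comparison at an adjusted p of 0.05 in edgeR, where 1.06% of all contigs tested were called. In WWTP against reference edgeR called 0 of 39, beside 1.47% of all contigs, and in runoff against reference 0 of 39, beside 0.116%. At an unadjusted p under 0.05, 11 members were higher and 0 lower in WWTP against reference, beside 7.77% and 6.77% of all contigs. The same counts were 0 higher and 5 lower in runoff against reference, beside 5.1% and 4.86%, and 16 higher and 0 lower in WWTP against runoff, beside 6.87% and 6.59%. A test of any difference among the 3 sites called 1 member, again IF4B (edgeR, adjusted p = 0.0201), beside 2.03% of all contigs.

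Other tools on the same counts called few members as well. DESeq2 called 0 in WWTP against reference (4.04% of all contigs) and limma-voom 1, RL37A (4.67%). In runoff against reference both called 0 (1.41% and 0.714% of all contigs). In WWTP against runoff both called IF4B and IF6.2.2 (3.42% and 2.93% of all contigs), and all of these were higher in WWTP clams. For any difference among sites DESeq2 called 3 members (6.13% of all contigs) and limma-voom 2 (5.91%).

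**Figure D1:**
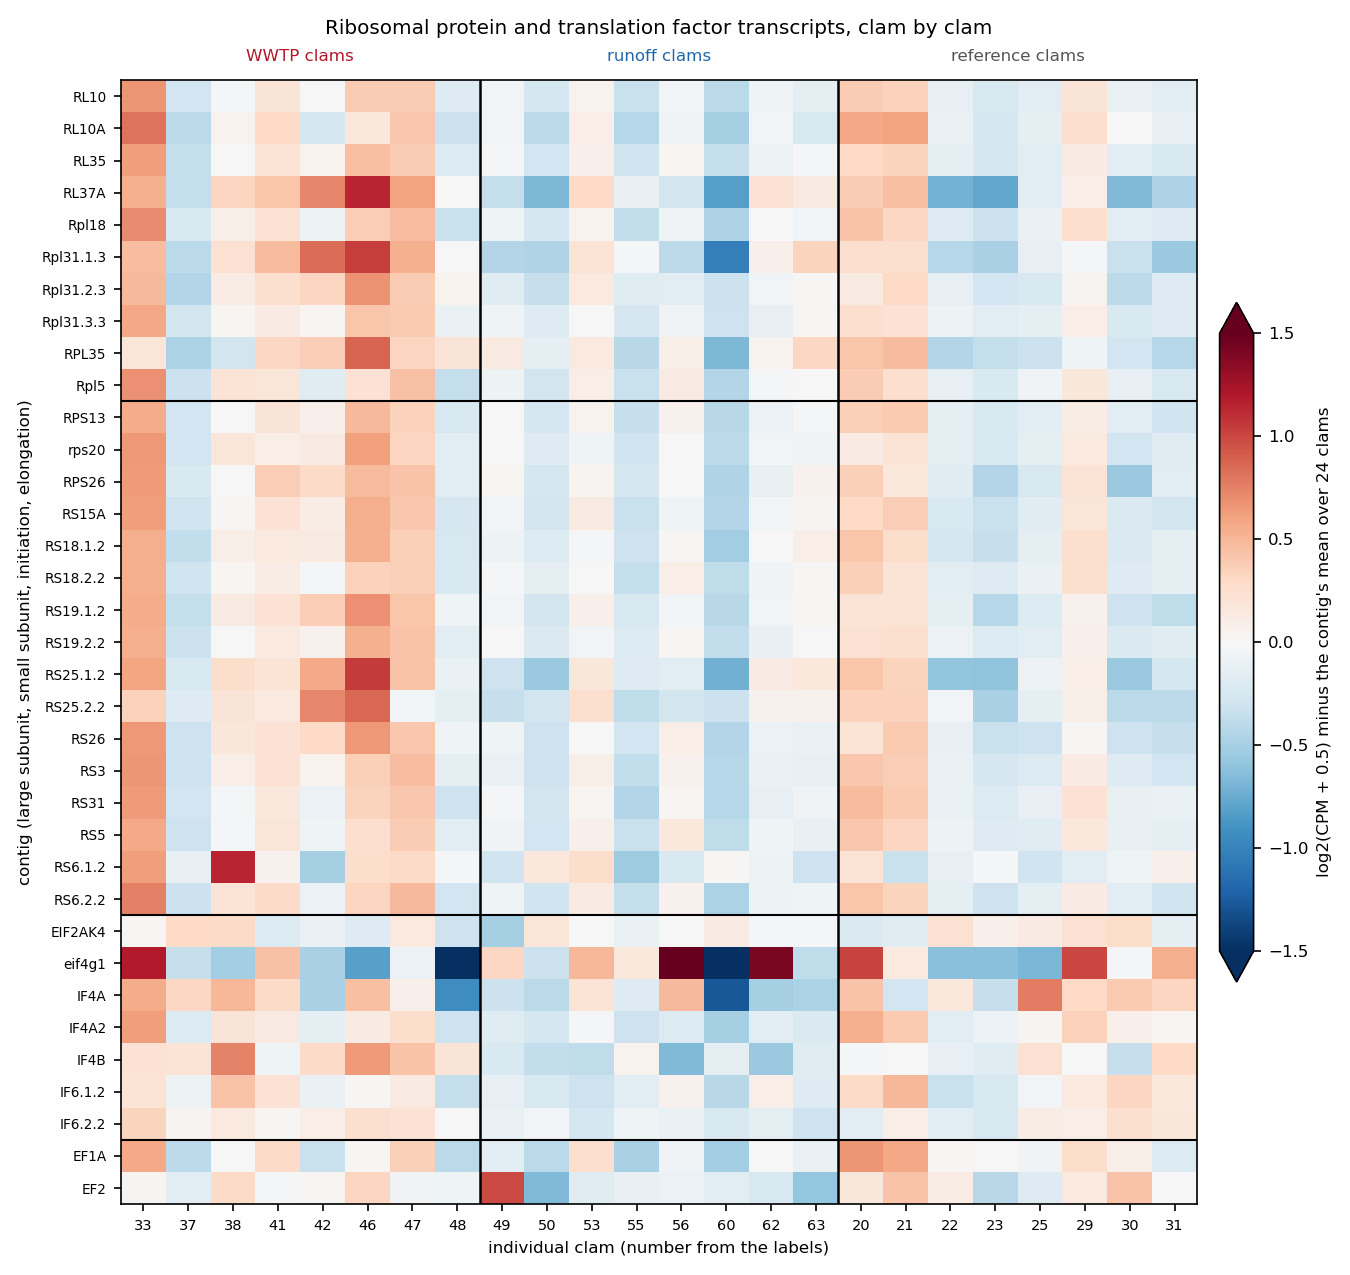
Each row is 1 of 35 contigs and each column 1 of 24 clams, with WWTP clams on the left, runoff clams in the middle and reference clams on the right. Colour gives log2(CPM + 0.5) minus the contig's mean over the 24 clams. Most of the 26 ribosomal protein rows share 1 pattern of dark and light columns. The median of all 30 ribosomal contigs is highest in WWTP individual 33 and lowest in runoff individual 60. Single rows can differ, as RL37A is highest in WWTP individual 46 and RL35 lowest in WWTP individual 37.

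The 30 ribosomal protein contigs moved from clam to clam almost as one. The Pearson correlation of log2(CPM + 0.5) over 24 clams had a median of 0.892 over the 435 pairs, and 0.887 after each site's mean was removed. In lane 3 the median was 0.914 and in lane 4 it was 0.862. For the 20 ribosomal contigs with a mean of at least 100 CPM the median was 0.951, whereas over the 1233 other contigs of that abundance it was 0.117. Pairs of those other contigs were widely spread, with quartiles of −0.42 and 0.69. Of them 20.5% lay above 0.8, beside 95.8% of the pairs of the 20 ribosomal contigs. All values come from the same 24 libraries and the same scaling, and contigs of 1 protein may share reads, so the correlations are a description. Taking the median deviation of the 30 contigs as the ribosomal level of a clam, the level spanned 2.09-fold between the highest clam, WWTP individual 33, and the lowest, runoff individual 60.

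By site, the ribosomal level averaged 0.18 ± 0.32 in WWTP clams, −0.13 ± 0.19 in runoff clams and −0.026 ± 0.27 in reference clams on the log2 scale (SD, n = 8 each). WWTP clams ranged from −0.31 to 0.63, runoff clams from −0.44 to 0.093 and reference clams from −0.29 to 0.38, and all 3 ranges overlapped. The 4 lane 3 reference clams averaged 0.17 ± 0.25 and the 4 lane 4 reference clams −0.22 ± 0.060, while runoff clams averaged −0.19 ± 0.20 in lane 3 and −0.073 ± 0.18 in lane 4, and WWTP clams 0.23 ± 0.42 and 0.14 ± 0.24. The means of the reference clams of the 2 lanes thus stood apart more than the site means did. Their ranges overlapped, from −0.16 to 0.38 in lane 3 and from −0.29 to −0.15 in lane 4. The highest of lane 3 were reference individuals 20 and 21, at 0.38 and 0.33.

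Among the 11 large subunit contigs the median log2 fold change was 0.19 in WWTP against reference, −0.10 in runoff against reference and 0.33 in WWTP against runoff. None passed the adjusted threshold in edgeR. At an unadjusted p under 0.05, 3 were higher in WWTP against reference and 3 in WWTP against runoff, beside 7.77% and 6.87% of all contigs. In both cases they were RL37A, Rpl31.1.3 and Rpl31.2.3, which move with the other ribosomal contigs and are not separate observations. Runoff and WWTP clams were compared with the same reference clams, so those comparisons are not independent of each other.

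RL37A, a zinc-binding protein of the large subunit, had 20.1, 36.4 and 58.1 CPM as the lowest, median and highest of 8 WWTP clams, 14.4, 22.7 and 32.0 CPM in runoff clams, and 14.9, 20.9 and 35.7 CPM in reference clams. Of the WWTP clams, 7 were above the reference median and 4 above every reference clam, and the groups overlapped. Its log2 fold change in WWTP against reference was 0.65 ± 0.23 (SE), with an adjusted p of 0.154 in edgeR and 0.0417 in limma-voom. Within lane 3 it was 0.40 ± 0.29 and within lane 4 1.02 ± 0.16, neither called. Reference clams had 23.1 to 35.7 CPM in lane 3 and 14.9 to 18.6 CPM in lane 4, so the lanes held different reference levels.

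Rpl31 lies beside the tunnel through which the new protein leaves the ribosome, and 3 contigs carried its name. Rpl31.1.3 had 3.95, 7.65 and 11.6 CPM (lowest, median and highest) in WWTP clams, 2.40, 4.66 and 6.93 CPM in runoff clams and 3.51, 4.56 and 6.53 CPM in reference clams. In 5 of the 8 WWTP clams the level was above every reference clam. The log2 fold change was 0.66 ± 0.21 in WWTP against reference (edgeR, adjusted p = 0.125) and 0.66 ± 0.22 in WWTP against runoff (adjusted p = 0.133). Within lanes it was 0.51 and 0.85 against reference, and 1.22 and 0.17 against runoff, in lanes 3 and 4 in that order. Rpl31.3.3, the contig of this name with the most counts, kept to a narrow range of 1.85-fold over all 24 clams, with 264, 338 and 478 CPM in WWTP clams, 258, 300.1 and 328 CPM in runoff clams and 272, 298 and 383 CPM in reference clams.

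Rpl5, which carries the 5S RNA into the large subunit, had the highest mean of the large subunit contigs, 1756 CPM. It had 1343, 1969 and 2763 CPM as the lowest, median and highest of the WWTP clams, 1272, 1669 and 1897 CPM in runoff clams, and 1464, 1623 and 2252 CPM in reference clams. The groups overlapped, and 5 WWTP clams lay above every runoff clam. Its log2 fold changes were 0.13 ± 0.19 in WWTP against reference, −0.12 ± 0.19 in runoff against reference and 0.25 ± 0.19 in WWTP against runoff (edgeR, adjusted p = 0.852, 0.959 and 0.651). Other large subunit contigs were RL10, which sits close to the site of peptide bond formation, RL10A of the stalk where spent tRNAs leave, RL35 and RPL35 near the exit tunnel, and Rpl18. Their log2 fold changes lay between 0.0045 (RL10A) and 0.44 (RPL35) in WWTP against reference, and RL10A had the lowest value in runoff against reference, −0.32 ± 0.19 (adjusted p = 0.622).

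The 19 small subunit contigs had a median log2 fold change of 0.23 in WWTP against reference, −0.096 in runoff against reference and 0.35 in WWTP against runoff. Again none passed the adjusted threshold in edgeR. At an unadjusted p under 0.05, 7 were higher in WWTP against reference, beside 7.77% of all contigs. Among them were RPS26, RS19.1.2, RS25.1.2, RS25.2.2, RS26 and RS6.1.2. In WWTP against runoff 10 were higher, beside 6.87% of all contigs, the same 7 included, and rps20 and RS3 were among the others. Since these contigs move together, neither count is one of separate observations. No small subunit contig was lower at that level in any comparison.

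RS6.2.2 is 1 of 2 contigs named for the protein that S6 kinase phosphorylates in mammals, and it had the highest mean of the small subunit contigs, 871 CPM. The lowest, median and highest values were 682, 1011 and 1438 CPM in WWTP clams, 611, 812 and 929 CPM in runoff clams and 688, 767 and 1132 CPM in reference clams. The groups overlapped, with 5 WWTP clams above every runoff clam and 2 above every reference clam. Its log2 fold change was 0.22 ± 0.18 in WWTP against reference, −0.13 ± 0.18 in runoff against reference and 0.34 ± 0.19 in WWTP against runoff (edgeR, adjusted p = 0.679, 0.953 and 0.447). Its partner RS6.1.2, at a mean of 0.611 CPM, followed the other ribosomal contigs least (r = 0.387 with the median of the other 29), while RL35 followed them most closely (r = 0.991).

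Others of the small subunit with named roles were spread in the same way. RS19, needed in animals to finish the small subunit, had a log2 fold change of 0.39 ± 0.14 for RS19.1.2 in WWTP against reference, with 5 of 8 WWTP clams above every reference clam (edgeR, adjusted p = 0.167). RS25.1.2, whose protein helps some viral messenger RNAs to start translation in yeast and mammals, had 0.51 ± 0.20 in WWTP against reference and 0.56 ± 0.20 in WWTP against runoff (adjusted p = 0.212 and 0.180). RS26, at the channel where messenger RNA leaves, had 0.36 ± 0.15 and 0.43 ± 0.15 in the same comparisons (adjusted p = 0.263 and 0.188). The smallest values in WWTP against reference were those of RS31, a name used in yeast for the protein made as a fusion with ubiquitin, at 0.060 ± 0.17, and RS5 at 0.089 ± 0.17.

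Taken over both subunits, all 30 ribosomal contigs had a positive log2 fold change in WWTP against reference (median 0.21) and in WWTP against runoff (median 0.34), and 28 had a negative one in runoff against reference (median −0.10); with library totals in place of TMM factors the counts were 18 positive and 12 negative, 30 positive, and 25 negative (medians 0.028, 0.12 and −0.071). Since the contigs move together, these counts are not 30 separate observations. Over all contigs the medians were 0.0064, −0.0066 and 0.012 in the same order, and library totals moved those of WWTP against reference and WWTP against runoff to −0.16 and −0.20. Relative to the median of all contigs, the median of the 39 members lay 0.18 higher in WWTP against reference with TMM factors and 0.16 higher with library totals. Within lane 3 it lay 0.027 higher and within lane 4 0.33 higher. In raw counts, ribosomal contigs took 1.15 ± 0.292% of the library in WWTP clams, 1.08 ± 0.242% in runoff clams and 1.17 ± 0.309% in reference clams (SD, n = 8 each).

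Sequencing lane moved with these values. In runoff against reference the median of the 30 ribosomal contigs was −0.36 within lane 3, where 29 were negative, and 0.16 within lane 4, where 28 were positive, so the pooled direction did not hold within both lanes. For WWTP against reference it was 0.10 in lane 3, with 23 of 30 positive, and 0.37 in lane 4, with 30 positive. In WWTP against runoff it was 0.42 in lane 3 and 0.19 in lane 4, with 30 positive in each. No member was called within either lane, where 4 clams stood against 4.

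**Figure D2:**
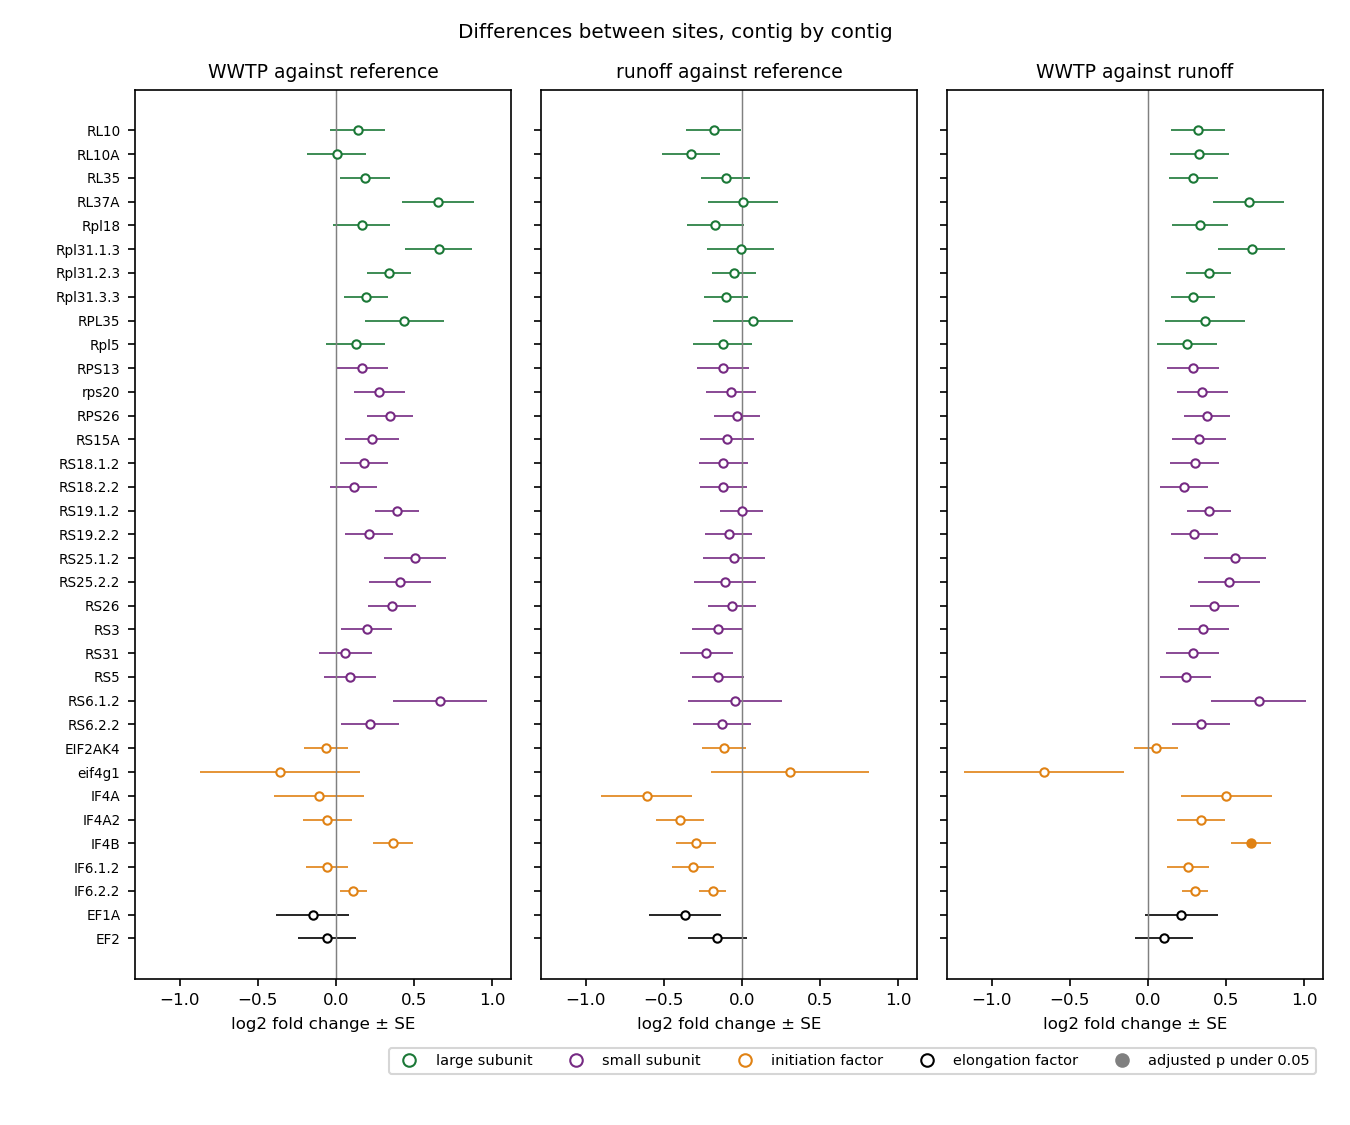
Points are log2 fold changes and lines their standard errors for 35 contigs (rows, by role) in WWTP against reference, runoff against reference and WWTP against runoff, from TMM-scaled counts of 8 clams per site. The filled point, IF4B in WWTP against runoff at 0.66, is the only value past an adjusted p of 0.05, and all 26 ribosomal rows lie right of 0 in WWTP against reference, where with library totals 18 of all 30 ribosomal contigs were positive.

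Among the initiation factors the lower values stood in runoff against reference. Of 7 contigs, with the kinase EIF2AK4 counted in, 5 were lower at an unadjusted p under 0.05 in runoff against reference. These were IF4A, IF4A2, IF4B, IF6.1.2 and IF6.2.2, and the background share of lower contigs was 4.86%. None of them passed the adjusted threshold in edgeR. The median log2 fold change of the 7 was −0.29 pooled, −0.39 within lane 3 and −0.17 within lane 4. In WWTP against reference the median was −0.056, and in WWTP against runoff 0.30.

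IF4B had 22.1, 27.7 and 39.2 CPM as the lowest, median and highest of 8 WWTP clams, 14.4, 18.8 and 24.1 CPM in runoff clams, and 18.2, 22.9 and 28.6 CPM in reference clams. Of the WWTP clams 7 stood above every runoff clam, and the exception was individual 41, the lowest WWTP clam, against runoff individual 55, the highest of its group. The log2 fold change in WWTP against runoff was 0.66 ± 0.13, with an adjusted p of 0.0176 in edgeR, 4.545e-05 in DESeq2 and 0.00539 in limma-voom. Reference clams lay between the other sites, with 0.36 ± 0.13 in WWTP against reference and −0.29 ± 0.13 in runoff against reference (edgeR, adjusted p = 0.148 and 0.414). The difference between WWTP and runoff was of like size in both lanes, 0.69 ± 0.16 in lane 3 and 0.61 ± 0.21 in lane 4, without being called in either (adjusted p = 0.534 and 0.593). With library totals it was 0.45 ± 0.11 and lost its call (edgeR, adjusted p = 0.0547), and no member was then called in WWTP against runoff, beside 0.939% of all contigs. Leaving out each clam in turn kept it between 0.59 and 0.72 and called in all 24 refits.

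IF4B also moved with digestive enzyme transcripts. Over 24 clams its correlation was 0.531 with GUN, an endoglucanase, and 0.537 with the sum of the 13 digestive hydrolases, against 0.338 with the ribosomal level. With GUN it was 0.350 without the 2 clams farthest from the median of GUN, and the Spearman value over 24 clams was 0.463. GUN itself had medians of 622, 359 and 571 CPM in WWTP, runoff and reference clams and ran from 2.74 to 1077 CPM over all 24. With GUN as a term in the fit, IF4B kept a log2 fold change of 0.58 ± 0.11 in WWTP against runoff (edgeR, adjusted p = 0.00655).

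**Figure D3:**
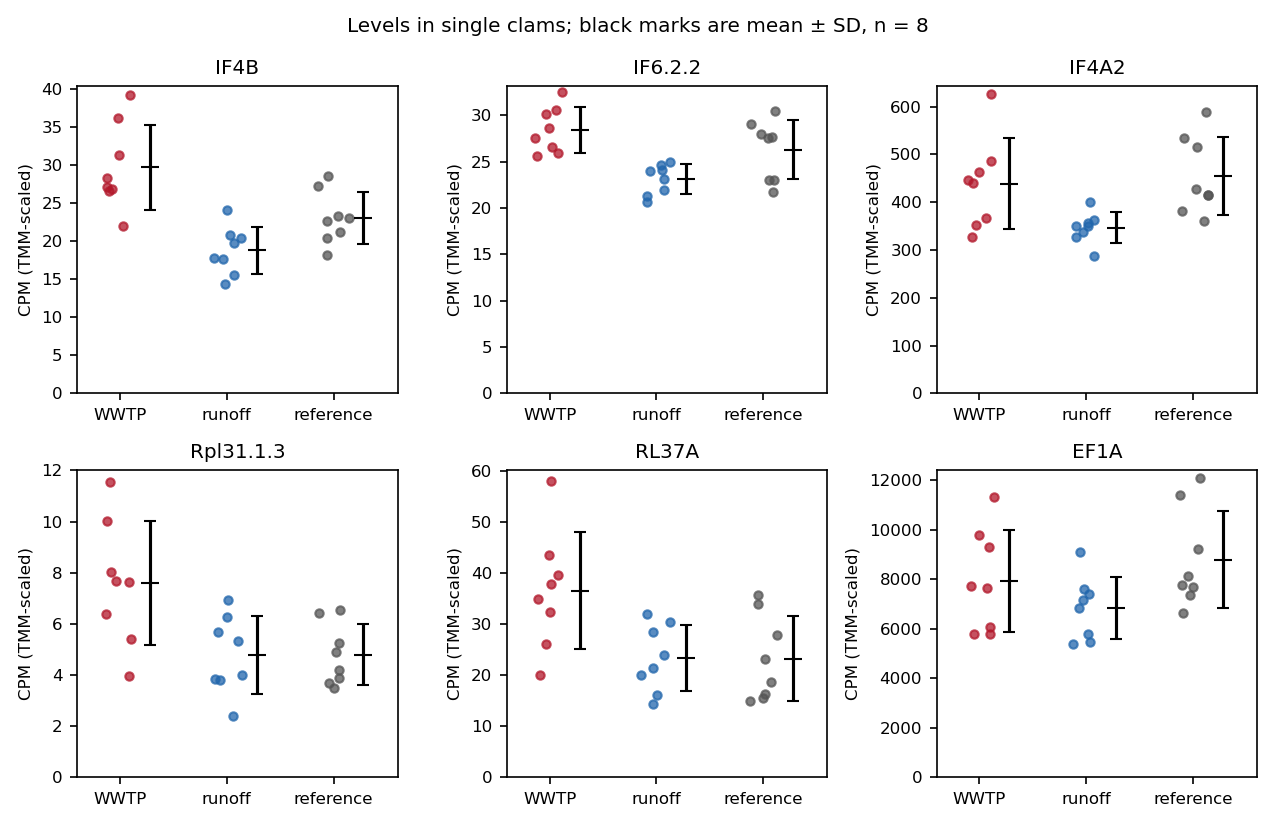
CPM of 6 contigs in single clams, with WWTP clams left, runoff clams in the middle and reference clams right; black marks give the mean and SD of 8 clams. IF4B runs from 22.1 to 39.2 CPM in WWTP clams and from 14.4 to 24.1 CPM in runoff clams, and IF6.2.2 is the contig whose WWTP and runoff clams do not overlap.

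IF6 keeps large subunits from joining small ones too early and takes part in making the large subunit. IF6.2.2 had 25.6, 28.1 and 32.6 CPM as the lowest, median and highest of the WWTP clams, 20.7, 23.6 and 25.0 CPM in runoff clams and 21.7, 27.6 and 30.4 CPM in reference clams. All 8 WWTP clams lay above all 8 runoff clams, which was so for 1 of the 39 members and for 0.226% of all contigs in that direction. It also had the narrowest range of the named members, 1.57-fold from the lowest to the highest clam. The log2 fold change in WWTP against runoff was 0.30 ± 0.085, with an adjusted p of 0.0822 in edgeR, 0.00656 in DESeq2 and 0.0304 in limma-voom. Within lanes 3 and 4 it was 0.29 ± 0.14 and 0.28 ± 0.14, and with library totals 0.098 ± 0.13 (adjusted p = 0.724). The other contig, IF6.1.2, had 2.88, 4.09 and 5.33 CPM in WWTP clams, 2.77, 3.35 and 4.17 CPM in runoff clams and 2.96, 4.34 and 5.67 CPM in reference clams, and its log2 fold change in runoff against reference was −0.31 ± 0.13 (edgeR, adjusted p = 0.421).

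The helicase eIF4A was represented by IF4A and IF4A2. IF4A2 had 326, 444 and 626 CPM as the lowest, median and highest of the WWTP clams, 287, 350.3 and 400.0 CPM in runoff clams and 361, 422 and 589 CPM in reference clams. Of the runoff clams 6 lay below every reference clam, and none reached the reference median. The log2 fold change in runoff against reference was −0.39 ± 0.15 (edgeR, adjusted p = 0.351), with −0.61 ± 0.29 in lane 3 and −0.12 ± 0.22 in lane 4. In WWTP against reference it was −0.054 ± 0.15 and in WWTP against runoff 0.34 ± 0.15 (adjusted p = 0.934 and 0.328).

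IF4A ranged 7.02-fold over the 24 clams. It had 0.826, 2.61 and 3.22 CPM in WWTP clams, 0.543, 1.46 and 3.03 CPM in runoff clams and 1.48, 2.63 and 3.81 CPM in reference clams. Runoff individual 60 was the lowest clam and WWTP individual 48 the next, and these were also the lowest for eif4g1. Its log2 fold change was −0.61 ± 0.29 in runoff against reference, −0.11 ± 0.29 in WWTP against reference and 0.50 ± 0.29 in WWTP against runoff (edgeR, adjusted p = 0.489, 0.928 and 0.491).

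The contig eif4g1, named for the scaffold that ties the cap-binding complex to the small subunit, had the widest range of the set. Levels ran 22.5-fold, from 0.408 CPM in runoff individual 60 to 9.19 CPM in runoff individual 56. WWTP clams had 0.466, 1.82 and 6.58 CPM as lowest, median and highest, runoff clams 0.408, 3.16 and 9.19 CPM and reference clams 1.42, 2.73 and 5.74 CPM. The spread within sites was far wider than the distance between them, and the log2 fold changes were −0.36 ± 0.51 in WWTP against reference, 0.31 ± 0.51 in runoff against reference and −0.66 ± 0.51 in WWTP against runoff (edgeR, adjusted p = 0.842, 0.965 and 0.656). Without runoff individual 56 the value for runoff against reference was −0.0021.

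Across the 24 clams eif4g1 varied with an egg yolk precursor. Its Pearson correlation with Vg.1.2, a vitellogenin contig, was 0.854 on log2 CPM (Spearman 0.843), and 0.796 without the 2 clams farthest from the median of Vg.1.2. In lane 3 it was 0.845 and in lane 4 0.870. With the ribosomal level eif4g1 correlated at 0.403 and with GUN at −0.661. The ribosomal level itself correlated with Vg.1.2 at 0.568, with values of 0.679 in lane 3 and 0.343 in lane 4. Vg.1.2 ran from 110 to 6326 CPM in WWTP clams, from 45.3 to 3481 CPM in runoff clams and from 459 to 3751 CPM in reference clams. These are relations between measures of the same 24 libraries, and the sex or reproductive state of the clams was not used.

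**Figure D4:**
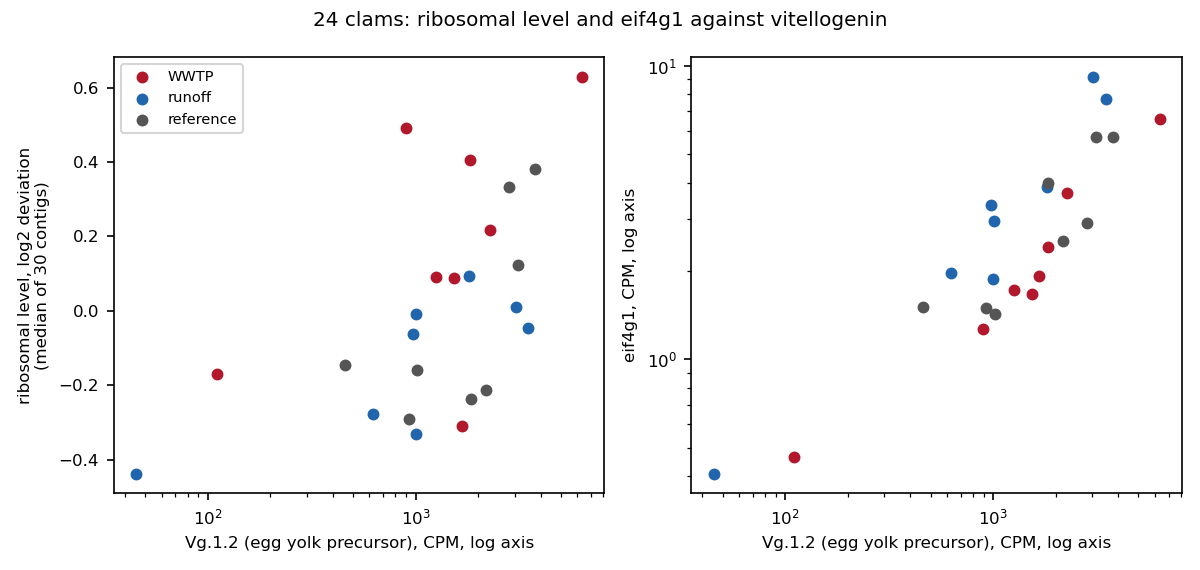
Each point is 1 of 24 clams, coloured by site, with Vg.1.2 in CPM on a log axis. The ribosomal level (left, log2 deviation) and eif4g1 (right, CPM, log axis) are on the vertical axes, and eif4g1 rises with Vg.1.2 from 0.408 CPM in runoff individual 60, the clam with the lowest Vg.1.2 of 45.3 CPM, with a correlation of 0.854.

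EIF2AK4 enters the set through its name, and codes for a kinase (GCN2) that slows initiation when amino acids run short rather than for an initiation factor. Its mean over 24 clams was 1.72 CPM, and clams ran from 1.28 to 2.21 CPM at the WWTP site, from 1.06 to 1.998 CPM at the runoff site and from 1.38 to 2.15 CPM at the reference site. The groups overlapped, with log2 fold changes of −0.065 ± 0.14, −0.12 ± 0.14 and 0.051 ± 0.14 in WWTP against reference, runoff against reference and WWTP against runoff. Unlike the ribosomal contigs it ran weakly against the ribosomal level, at a correlation of −0.251.

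Neither elongation factor was called in any comparison. EF1A, which brings loaded tRNAs to the ribosome, had 5790, 7682 and 11335 CPM as the lowest, median and highest of the WWTP clams, 5386, 6990 and 9102 CPM in runoff clams and 6656, 7960 and 12081 CPM in reference clams. In runoff clams 7 of 8 were below the reference median. Its log2 fold changes were −0.15 ± 0.23 in WWTP against reference, −0.36 ± 0.23 in runoff against reference and 0.21 ± 0.23 in WWTP against runoff (edgeR, adjusted p = 0.861, 0.682 and 0.792). EF1A took 0.740 ± 0.240% of all counts in WWTP clams, 0.737 ± 0.218% in runoff clams and 0.927 ± 0.293% in reference clams, and it correlated with the ribosomal level at 0.797. EF2, which moves the ribosome by a codon, averaged 31.3 ± 3.98 CPM in WWTP clams, 29.2 ± 13 CPM in runoff clams and 32.5 ± 6.39 CPM in reference clams (SD, n = 8 each), and runoff individual 49 was the highest clam at 60.1 CPM.

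Pooled over lanes, other contigs of like abundance had medians close to those of the ribosomal contigs. For each member, contigs within 1.5-fold of its mean CPM were taken as its like group, of 9 to 13709 contigs. The median log2 fold change of the 30 ribosomal contigs was 0.21 in WWTP against reference, and the median of their like groups 0.24. In runoff against reference the values were −0.10 and −0.082, and in WWTP against runoff 0.34 and 0.32. The 1233 other contigs of at least 100 CPM had medians of 0.24, −0.066 and 0.31 in these comparisons. Within lanes the medians of ribosomal and of other abundant contigs stood further apart in each comparison. In runoff against reference they were −0.36 and 0.16 in lane 3, and 0.16 and −0.17 in lane 4. In WWTP against reference they were 0.099 and 0.31 in lane 3, and 0.37 and 0.15 in lane 4. In WWTP against runoff they were 0.42 and 0.18 in lane 3, and 0.19 and 0.31 in lane 4. With GUN as a term they were −0.13 and 0.053 in runoff against reference and 0.44 and 0.083 in WWTP against runoff. In WWTP against reference they were 0.26 and 0.19 with that term.

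The abundant and the less abundant ribosomal contigs differed in this respect. The 20 with a mean of at least 100 CPM had a median of 0.18 in WWTP against reference, beside 0.24 for their like groups, and 3 of 20 lay above their like group. The 10 under 100 CPM had a median of 0.43, beside 0.034, and 10 of 10 lay above. In WWTP against runoff the medians were 0.31 beside 0.33 for the abundant contigs, and 0.51 beside 0.040 for the less abundant ones, again with 10 of 10 above. In runoff against reference the values were −0.12 beside −0.10 and −0.037 beside −0.010, with 4 of the 10 less abundant contigs above. When like groups held contigs with a symbol only, the less abundant contigs had −0.037 beside −0.089, with 10 of 10 above, and the 30 ribosomal contigs −0.10 beside −0.11. Because ribosomal contigs move together, 10 of 10 is not 10 separate observations. The 9 translation factors, with EIF2AK4 counted in, had −0.056 beside 0.060 in WWTP against reference. They had −0.29 beside −0.033 in runoff against reference and 0.25 beside 0.088 in WWTP against runoff. In runoff against reference 1 of the 9, eif4g1, lay above its like group.

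**Figure D5:**
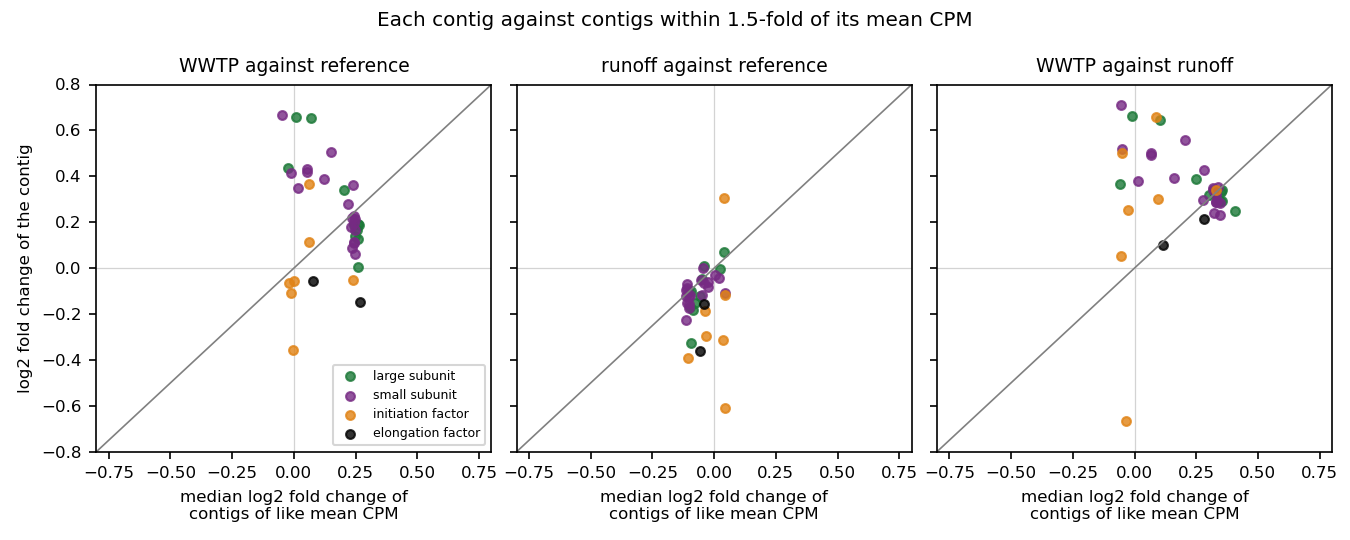
Each point is 1 of 39 contigs, with its own log2 fold change (TMM-scaled) on the vertical axis and the median of contigs within 1.5-fold of its mean CPM on the horizontal axis; the diagonal marks equal values. In WWTP against reference the less abundant ribosomal contigs lie above the diagonal (median 0.43 beside 0.034) and in runoff against reference 8 of 9 translation factors lie below it.

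Abundant contigs also varied more than ribosomal ones between clams. The median SD of log2(CPM + 0.5) over 24 clams was 0.289 for the 20 abundant ribosomal contigs and 1.01 for their like groups, and 20 of 20 were below. For the 10 less abundant ones it was 0.403 beside 0.344, with 3 of 10 below.

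Several proteins had more than 1 contig, and a read could have been counted on either, which leaves the split between them uncertain. Over 9 such proteins, the 11 contigs with fewer counts were set against the contig of the same name with the most. In 8 of 11 pairs the lesser contig had the larger log2 fold change in WWTP against reference (median difference 0.18). The count was also 8 of 11 in runoff against reference (0.083) and in WWTP against runoff (0.094). Rpl31.1.3 stood at 2.09 ± 0.546% of Rpl31.3.3 in WWTP clams, 1.61 ± 0.446% in runoff clams and 1.503 ± 0.199% in reference clams. RS19.1.2 stood at 11.7 ± 0.902%, 11.0 ± 0.521% and 10.3 ± 0.587% of RS19.2.2 at the same sites (SD, n = 8 each). RPS26 and RS26 kept a ratio of 5.92 ± 0.498%, 6.103 ± 0.346% and 5.97 ± 0.769%.

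Other genes of the translation route were taken from lists of name patterns. The 12 mitochondrial ribosomal proteins, 5 aminoacyl-tRNA synthetases, 4 ribosome biogenesis genes and 3 proteins that meet the ribosome or the new chain were found, and no release or recycling factor and no other eIF2 kinase or mTOR gene matched. None of the 12 mitochondrial ribosomal proteins passed the adjusted threshold in edgeR in any comparison, or an unadjusted p of 0.05. Their medians were −0.013 in WWTP against reference, −0.21 in runoff against reference and 0.23 in WWTP against runoff. None of the 5 synthetases was called either, and 2 were higher in WWTP against runoff at an unadjusted p under 0.05, beside 6.87% of all contigs.

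Of the 4 ribosome biogenesis genes, 2 were called higher in WWTP clams against both other sites in the fit of all 24 clams. Of all contigs, 1.47% were called against reference and 1.06% against runoff, and the calls of these 2 genes lay close to the threshold. NUCL is nucleolin, which organises ribosomal DNA and its transcripts in the nucleolus. It had 165 to 235 CPM in WWTP clams, 126 to 161 CPM in runoff clams and 120 to 160 CPM in reference clams. All 8 WWTP clams thus lay above all 8 runoff clams, which was so for 0.226% of all contigs. They also lay above all 8 reference clams, for which that share is not given here. The log2 fold change of NUCL was 0.57 ± 0.11 in WWTP against reference (edgeR, adjusted p = 0.0174) and 0.45 ± 0.11 in WWTP against runoff (adjusted p = 0.0485). GAR1, a core protein of the particles that place pseudouridine in ribosomal RNA, had 14.6 to 23.9 CPM in WWTP clams, 8.71 to 16.5 CPM in runoff clams and 11.2 to 18.03 CPM in reference clams. Its log2 fold change in WWTP clams was 0.56 ± 0.13 against reference and 0.63 ± 0.13 against runoff (adjusted p = 0.0314 and 0.0231). The other 2, ddx21 and RPA43, had 0.069 ± 0.14 and −0.051 ± 0.25 in WWTP against reference.

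Among the 3 proteins that meet the ribosome, sec61g, a subunit of the channel that takes new chains into the endoplasmic reticulum, was called higher in WWTP clams in the same fit. It had 71.1 to 165 CPM in WWTP clams, 51.4 to 93.3 CPM in runoff clams and 53.3 to 112 CPM in reference clams, with log2 fold changes of 0.76 ± 0.17 against reference and 0.85 ± 0.17 against runoff (edgeR, adjusted p = 0.0304 and 0.0217). FAU and GBLP (RACK1, a scaffold on the small subunit) were not called. Within lanes 3 and 4, NUCL had 0.44 and 0.70 against reference, GAR1 0.49 and 0.63, and sec61g 0.74 and 0.77, with no call in either lane. With library totals none of the 3 was called against reference and sec61g alone was called against runoff (0.63 ± 0.14, adjusted p = 0.0376). In edgeR fits of the 2 sites compared, sec61g lost its calls against reference and runoff (adjusted p = 0.0638 and 0.0575), as did NUCL (0.0515 and 0.130), and GAR1 lost that against runoff (0.0571). The NUCL call against runoff was also lost with upper-quartile factors (edgeR, adjusted p = 0.0718), lane as a term (0.0584) and no filter (0.0501). When each clam was left out in turn, NUCL kept its call against reference in 24 of 24 refits and against runoff in 3 of 24, GAR1 in 14 and 21, and sec61g in 14 and 21.

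The ribosomal level also varied with sums of marker contigs. Over 24 clams it correlated at 0.734 with the sum of the cilia and tubulin genes and at 0.568 with that of the contractile genes. The values were 0.559 for the sum of the 2 vitellogenin contigs and −0.281 for that of the digestive hydrolases. With the library total the ribosomal level correlated at −0.331. Within the lists single contigs differed from their sum. Digestive hydrolases ran from −0.617 (LYS1) to 0.584 (Amy.2.2), and contractile genes from −0.164 (UNC22) to 0.658 (TPM.3.5). Contigs of the cilia and tubulin list differed as well. Those with ciliary names had 0.191 (CFA20), 0.363 (cfap44), 0.0090 (cfap65) and −0.382 (DYHC). Tubulins ran from −0.338 (TBA1.6.7) to 0.755 (TBA.2.2), so the sum does not stand for ciliated cells alone. The part of these markers in the site differences was not tested, except that GUN was used as a term. With that term the median of the 30 ribosomal contigs was 0.26 in WWTP against reference, −0.13 in runoff against reference and 0.44 in WWTP against runoff. In that fit edgeR called 2, 1 and 13 of 39 members, beside 4.87%, 3.01% and 4.25% of all contigs. Abundant contigs were called more often than that share, with 216, 226 and 142 of the 1233 other contigs of at least 100 CPM. The 13 members in WWTP against runoff were 10 ribosomal contigs, IF4A2, IF4B and IF6.2.2, all higher in WWTP clams. The test of any difference among sites then called 11 members, beside 8.57% of all contigs.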

How the data were processed

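RNA-seq of the digestive gland was made for 24 clams, 8 per site, with 1 library each. Per the labels' protocols, the RNA came from a Promega SV column kit and went into TruSeq RNA v2 libraries, and the submitters' processing notes name BWA 0.7.12 and SAMtools 1.1. The deposited values are raw read counts per assembled contig, whole numbers that the authors left unnormalised, per the values themselves. Assembly, naming and counting rule are not stated in the sources used here. The 39 members, the lists and the rule for naming genes were chosen with earlier results of these data known. A few contigs count in every total but are not named or given a row in the figures.

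Contigs were filtered with filterByExpr by site (minimum count 10), which kept 57593 of 58291. TMM factors, the robust quasi-likelihood test of edgeR 4.0.16 under R 4.3.3, and Benjamini-Hochberg adjustment over all contigs kept (threshold 0.05) were applied to all 24 libraries in 1 fit without covariates. Log2 fold changes are the first site over the second with their SE. CPM uses TMM-scaled library sizes. Figures of members were drawn with python 3.11.15 and matplotlib 3.10.9.

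Named members are those called, the 3 with the smallest p in each comparison at a mean of at least 2 CPM, the one with the highest mean in each role, and the 2 widest and 2 narrowest in range. Alternatives were library totals, RLE and upper-quartile factors, no filter, fits of 2 sites or of 1 lane, lane or GUN as a term, DESeq2 1.42.0, limma-voom with sample weights (limma 3.58.1) and each library left out. The fit was tested on simulated data. A contig at 0 counts could hold up to 3 expected counts (95% confidence, counting error only), or 0.0323 to 0.0792 CPM. The biological coefficient of variation was 45.8%, and no 2 libraries correlated above 0.984.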

Additional observations from a re-analysis of the deposited data

How the results depend on the processing

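Calls on the 39 members were few and moved with the method. Counts of members called stayed at 0 (WWTP against reference), 0 (runoff against reference), 1 (WWTP against runoff) and 1 (any site) with RLE or upper-quartile factors, no filter, lane as a term and fits of 2 sites (any site not run there), and in each of the 24 refits without 1 clam. For any site the count was 0 with library totals, 0 in lane 3, 0 in lane 4, 11 with GUN as a term, 3 with DESeq2 and 2 with limma-voom. In WWTP against runoff it was 0 with library totals, 0 in lane 3, 0 in lane 4, 13 with GUN as a term, 2 with DESeq2 and 2 with limma-voom. Against reference, WWTP had 2 with GUN as a term and 1 with limma-voom, and in runoff against reference 1 with GUN as a term. Lanes held 4 clams per site, so fewer samples lie behind those 0 counts; the cause of the other changes was not tested. Without 1 clam, the median log2 fold change of ribosomal proteins ranged from 0.14 to 0.28 in WWTP against reference, from −0.14 to −0.046 in runoff against reference and from 0.26 to 0.40 in WWTP against runoff.

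Signs turned for values close to 0, none of them called. With library totals, WWTP against reference became −0.053 for Rpl5 and −0.069 for IF6.2.2. In lane 3, it was −0.050 for Rpl5, and runoff against reference was −0.060 for eif4g1, which was −0.083 with GUN as a term. In lane 4, WWTP against reference was 0.10 for EF1A and 0.12 for IF4A2, and runoff against reference was 0.13 for Rpl5, 0.17 for RS6.2.2 and 0.096 for Rpl31.3.3. Without 1 clam, runoff against reference for eif4g1 ranged from −0.0021 (without runoff individual 56) to 0.48, and WWTP against reference ranged from −0.19 to 0.011 for IF4A (positive without WWTP individual 48 and without reference individual 25) and from −0.14 to 0.0086 for IF4A2 (positive without reference individual 20). Of the values for single named members under all alternatives, 1059 kept direction and side of the threshold, 9 gained a call, 3 lost one and 14 turned. Like groups within 1.2-fold kept the signs of their medians. Among symbols alone, the like median of the 10 ribosomal contigs under 100 CPM turned to −0.0053 in WWTP against reference. No paired analysis was possible because the numbers only follow accession order, and each clam gave 1 library.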

Other observations

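Contigs outside the naming rule were ranked by their correlation with the ribosomal level over the 24 clams, as a description of libraries that share depth and scaling. Of 38589 other contigs with a mean of at least 2 CPM, 104 (0.270%) had r above 0.9, and of the 1242 that carry a symbol 6 did. Among them FAU (r = 0.982) is a ubiquitin-like protein fused to a protein of the small subunit. GBLP (r = 0.946) is the scaffold RACK1, and eef1b2 (r = 0.938) recharges the elongation factor EF1A. Others were RM19 of the mitochondrial ribosome (r = 0.914) and taf10, a subunit of the general transcription factor TFIID (r = 0.907). Below them came ATPA, a subunit of mitochondrial ATP synthase (r = 0.899), CYC.1.2, cytochrome c (r = 0.885), and NDUS8 of respiratory complex I (r = 0.858). None of these 8 was called between sites in edgeR.

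At the other end stood Birc2, an inhibitor of cell death (r = −0.828), LORF2.2.3 and LORF2.1.3, named for the open reading frame of LINE retrotransposons (r = −0.799 and −0.790), and SF3A2, a splicing factor (r = −0.784). LORF2.2.3 fell by 0.55 on the log2 scale in WWTP against runoff (SE 0.13, edgeR, adjusted p = 0.0487), and had −0.43 ± 0.13 in WWTP against reference (adjusted p = 0.104). These genes were picked by their correlation after the values were seen.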
